A study of Mus musculus with 12 samples.

Results

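Matrix metalloproteinases (MMPs), the membrane protease Adam8 and the tissue inhibitors of metalloproteinases (TIMPs) were followed in cultured mouse osteoclasts, the multinucleated cells that resorb bone. The 9 genes were taken by symbol, as Mmp9, Mmp14, Mmp12, Mmp8, Mmp19, Adam8, Timp1, Timp2 and Timp3, out of 46983 genes in the count table. Messenger RNA was sequenced from 12 libraries in 4 groups of 3, which crossed the mouse genotype with the kind of osteocyte supernatant added to the culture. The groups were Mincle knockout cells with necrotic supernatant (KO necrotic), Mincle knockout cells with viable supernatant (KO viable), wildtype cells with necrotic supernatant (WT necrotic) and wildtype cells with viable supernatant (WT viable). Wildtype mice were C57BL/6, and the knockout, which lacks the C-type lectin receptor Mincle, was on a C57BL/6 background. The sources used here do not give age, sex or the design of the deletion.

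All 4 groups shared the same culture, in which bone marrow monocytes were grown with M-CSF at 20 ng/ml, RANKL at 10 ng/ml and 10% serum. Osteocyte supernatant was added on day 1 for 24 hours, and RNA was taken on day 3. Necrosis of the osteocytes had been produced by serum starvation, and no group with starved, cell-free medium was among the samples, so products of dying osteocytes and the change in serum cannot be told apart. Total counts ran from 16382366 to 49612055 per library, with WT viable replicate 3 the deepest and the next at 25429661. Clec4e, the gene of Mincle, was measured at 1.56 to 2.43 CPM (counts scaled to library size, with TMM factors) in the KO libraries, against 21.9 to 27.8 CPM in the WT libraries. All 10 osteoclast markers examined were detected, among them Acp5, Ctsk and Calcr, and their summed level lay between 10640 and 16650 CPM. Markers of macrophages (6458 to 8358 CPM summed) and of neutrophils and their precursors (1053 to 1458 CPM summed) were also present, and those of dendritic cells (23.1 to 32.2 CPM) and lymphoid cells (39.4 to 71.1 CPM) were low.

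MMPs are zinc-dependent endopeptidases that are made as inactive precursors and cut collagens, gelatin, elastin and many proteins of the cell surface. ADAM proteases are membrane-anchored relatives that release the outer parts of membrane proteins, and TIMPs bind the active site of MMPs and of some ADAMs. In osteoclasts, Mmp9 is a well-known product of the differentiated cell, the membrane-bound Mmp14 acts at the cell surface, and mineralised collagen is cut mainly by cathepsin K in the acid space under the cell.

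RefSeq promoter windows on GRCm38.p6, from 250 bases before to 50 bases after a transcript start, were at hand for 7 of the 9 genes, in 8 windows. Mmp9 and Mmp19 had no entry. The windows of 3 genes that changed in at least 1 comparison below are printed first, followed by the only one of the 8 windows that held a searched motif. They lie at chr14:54431348-54431647 on the plus strand (Mmp14), chr9:7558179-7558478 on the plus strand (Mmp8), chr7:139992513-139992812 on the minus strand (Adam8) and chr9:7347124-7347423 on the plus strand (Mmp12, the second of its windows). Each is written 5′ to 3′ on the gene's own strand, and capitals mark a motif match.
Mmp14: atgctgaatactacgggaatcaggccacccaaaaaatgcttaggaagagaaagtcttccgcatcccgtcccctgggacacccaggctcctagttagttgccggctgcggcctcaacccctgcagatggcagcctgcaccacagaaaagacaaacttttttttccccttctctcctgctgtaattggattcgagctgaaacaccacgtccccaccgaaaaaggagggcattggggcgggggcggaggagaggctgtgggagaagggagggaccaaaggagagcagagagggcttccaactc
Mmp8: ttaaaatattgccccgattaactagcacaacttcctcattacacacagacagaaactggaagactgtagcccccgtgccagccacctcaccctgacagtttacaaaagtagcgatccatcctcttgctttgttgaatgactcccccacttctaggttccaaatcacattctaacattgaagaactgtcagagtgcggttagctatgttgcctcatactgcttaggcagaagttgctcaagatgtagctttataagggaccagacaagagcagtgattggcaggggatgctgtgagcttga
Adam8: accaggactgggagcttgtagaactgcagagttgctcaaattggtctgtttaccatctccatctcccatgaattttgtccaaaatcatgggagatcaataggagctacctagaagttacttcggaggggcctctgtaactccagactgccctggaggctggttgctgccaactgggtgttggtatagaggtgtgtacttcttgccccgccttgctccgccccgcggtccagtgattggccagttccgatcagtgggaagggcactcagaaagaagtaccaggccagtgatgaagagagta
Mmp12: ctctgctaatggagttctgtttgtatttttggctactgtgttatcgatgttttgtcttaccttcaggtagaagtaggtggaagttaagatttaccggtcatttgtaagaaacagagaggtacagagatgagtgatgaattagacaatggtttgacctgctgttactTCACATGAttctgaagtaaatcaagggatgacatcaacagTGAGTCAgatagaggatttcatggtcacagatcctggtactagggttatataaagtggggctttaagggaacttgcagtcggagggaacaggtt
The motifs searched on both strands were the AP-1 site TGANTCA and the MITF-type M-box TCANNTGA, both bound by factor families active in osteoclasts. In the Mmp12 window the M-box match starts at position -84 and the AP-1 match at position -44 from the transcript start, and the matches do not overlap. Among all 32851 promoter windows of this length, 7.81% held the AP-1 letters and 8.39% the M-box letters. The windows differed in CpG content, with 25 CpG dinucleotides for Timp2, 24 for Timp3, 10 for Mmp14, 8 for Timp1, 6 for Adam8, 4 for Mmp8, and 0 and 3 for the pair of Mmp12 windows.

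The 9 transcripts covered a wide range of levels. Scaled to exonic length, Mmp9 averaged 1637 CPM per kilobase over the 12 libraries and ranked 17 among 14110 genes with a length. Mmp8 (102 CPM per kilobase), Timp2 (98.5), Adam8 (77.0) and Mmp14 (54.7) formed a middle tier, and Mmp19 followed at 14.5 CPM per kilobase. Mmp12 (3.91), Timp1 (2.90) and Timp3 (0.427) were the scarcest of the 9. On this length-scaled level Mmp9 alone made up 79.0% to 84.6% of the sum of the 9 genes in each library.

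Neighbours in this order were not all separable. The Mmp8 and Timp2 levels per kilobase overlapped, with Mmp8 above Timp2 in 7 of 12 libraries, and Mmp12 lay above Timp1 in 8 of 12. Adam8 was above Mmp14 within each of the 12 libraries, although their ranges met. The other 5 neighbouring pairs did not overlap in range. With the longest coding transcript as the length, Adam8 moved to position 2 of the order and Mmp8 to position 4, and the other 7 genes kept their positions.

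**Figure D1:**
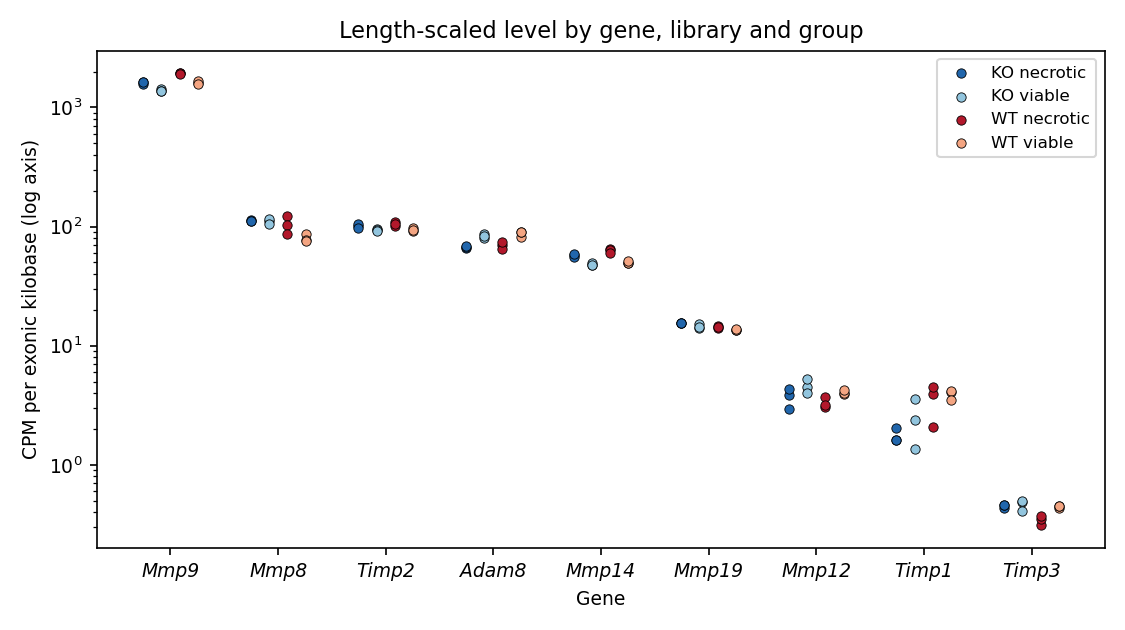
Level of each of the 9 genes in each library, as CPM per kilobase of exon on a log axis, with the genes ordered by their mean and 1 point per library, coloured by group (3 libraries each). Mmp9 stands alone near 1637 CPM per kilobase on average, and Timp3 lies lowest at 0.427.

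Necrotic supernatant was followed by more Mmp9 and Mmp14 RNA and less Adam8 RNA in both genotypes. In KO cultures, 3 of the 9 genes passed the test, with Mmp9 and Mmp14 higher and Adam8 lower. In WT cultures 4 passed, with Mmp9, Mmp14 and Mmp8 higher and Adam8 lower. Mmp9, Mmp14 and Adam8 were thus called in both genotypes. The KO and WT comparisons use different libraries, but both came from 1 fit to all 12 libraries. How often calls coincided over all genes was not counted, so no weight is put on this overlap. The sizes were moderate, between 1.17-fold and 1.31-fold for the rises and near 0.80-fold for Adam8.

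All 9 genes passed the filter on low counts. Tests came from edgeR's quasi-likelihood fit to all 12 libraries, were two-sided and were adjusted by Benjamini-Hochberg over 14153 genes with a threshold of 0.05. Under necrotic against viable supernatant, 7.43% of all genes passed in KO cultures, beside 33.3% of the 9 genes. In WT cultures the background was 9.31%, beside 44.4% of the 9 genes. These shares, and those between genotypes below, were not compared by a test. The 9 genes were chosen with earlier results of these data known. The called ones ranked high, with a level per kilobase at or above that of 93.4% of genes (Mmp14 lowest). The median absolute log2 fold change of the 9 genes was 0.22 in KO and 0.31 in WT cultures, against 0.11 and 0.12 over all genes tested. The signed medians were 0.01 and 0.07 for the 9 genes, against -8e-04 and -0.01 for all genes. The number of genes called across the whole table moved with single libraries. In KO, where 1052 genes were called, leaving out any one of the 6 KO libraries gave 383 (KO necrotic 3) to 647 (KO necrotic 2) genes. In WT, where 1318 genes were called, the count was 385 without WT viable 2, 528 without WT necrotic 2, 603 without WT viable 3 and 2015 without WT viable 1. Every member call other than that of Mmp8 in WT held without each of these libraries. The labels do not say whether replicates were separate animals or cultures, so each p-value reflects only how much these libraries vary, and that variation may be technical. In bulk RNA a higher level per cell and a larger number of cells of a type cannot be told apart, and this holds for each result below.

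Mmp9 was lower in KO than in WT under both supernatants, and Mmp8 was higher in KO under viable supernatant. Under necrotic supernatant 1 of the 9 genes (11.1%) passed, where 8.13% of all genes did. That count was 3 with DESeq2, which added Mmp14 and Timp1, and 2 without a filter, with the compared groups alone and with the deepest library thinned. Under viable supernatant 2 of the 9 (22.2%) passed, where 5.84% of all genes did. These backgrounds also moved. Under necrotic supernatant the count of 1150 genes became 163, 341 or 659 without KO necrotic 1, 2 or 3 and 250 without WT necrotic 2, and it was 681 with corrections for transcript length and GC content. Under viable supernatant the count of 827 genes became 445, 227 or 228 without KO viable 1, 2 or 3, 306 or 315 without WT viable 1 or 2, and 494 without KO necrotic 1. These genotype comparisons share libraries with the supernatant comparisons, so their values are given side by side and are not independent. For the difference of the responses (KO response minus WT response), 0 of the 9 genes and 0% of all genes passed edgeR's test, with 1 of the 9 (Mmp8) and 1064 genes at an unadjusted p under 0.05 and 0 genes called by DESeq2.

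**Figure D2:**
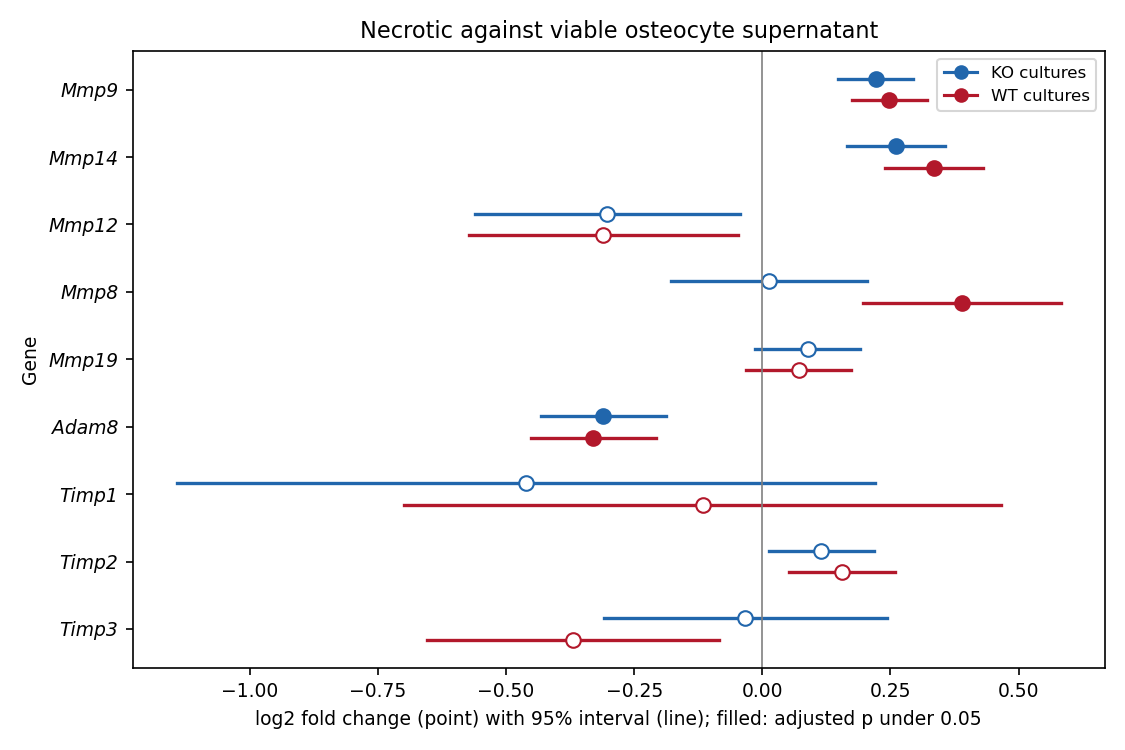
Log2 fold change of each gene for necrotic against viable supernatant, in KO cultures (blue) and WT cultures (red), with points for the estimate, lines for the 95% interval and filled points where the adjusted p was under 0.05. Mmp9 and Mmp14 lie right of 0 and Adam8 left of 0 in both genotypes, and Mmp8 is filled in WT at 0.39 and open in KO at 0.01.

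Mmp9, or gelatinase B, digests denatured collagen and type IV collagen. The gene (chromosome 2, 164940780 to 164955850, plus strand, GRCm38 here and below) had between 79852 and 280398 counts per library. In KO cultures it was measured at 5745, 5615 and 5815 CPM with necrotic supernatant, against 5006, 4835 and 4894 CPM with viable supernatant. In WT cultures the values were 6839, 6824 and 6747 CPM with necrotic supernatant, against 5698, 5899 and 5589 CPM with viable supernatant. Each necrotic library lay above every viable library of its genotype, and each KO library lay below every WT library that received the same supernatant. The KO necrotic libraries overlapped the WT viable libraries, at 5725 ± 101 CPM and 5729 ± 157 CPM (SD, n = 3 each).

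On the log2 scale, the response of Mmp9 was 0.22 in KO (SE 0.03, adjusted p = 0.00189) and 0.25 in WT (SE 0.03, adjusted p = 0.00081). The responses differed by -0.03 on the log2 scale, KO minus WT, with a 95% interval of -0.13 to 0.08. Against WT, the KO level was lower by log2 fold changes of -0.25 under necrotic supernatant (SE 0.03, adjusted p = 0.000982) and -0.22 under viable supernatant (SE 0.03, adjusted p = 0.00218). These 4 calls held under every alternative processing that was run, with log2 fold changes from 0.21 to 0.24 and from 0.22 to 0.27 for the responses in KO and WT. With corrections for transcript length and GC content, the KO-WT values were smaller at -0.18 (necrotic) and -0.19 (viable).

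Mmp14, or MT1-MMP, is anchored in the plasma membrane and activates pro-Mmp2 together with Timp2. It is on chromosome 14, 54431612 to 54445364, plus strand. KO cultures had 346.6, 331.1 and 352.6 CPM with necrotic supernatant, against 283.0, 293.3 and 283.6 CPM with viable supernatant. WT cultures had 386.7, 380.8 and 360.1 CPM with necrotic supernatant, against 293.5, 295.8 and 304.6 CPM with viable supernatant. Necrotic and viable libraries did not overlap in either genotype, and the KO libraries lay just below the WT libraries under each supernatant.

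Mmp14 responded with log2 fold changes of 0.26 in KO (SE 0.05, adjusted p = 0.00345) and 0.33 in WT (SE 0.05, adjusted p = 0.000631). Both calls held under every alternative. The difference between the responses was -0.07 with a 95% interval of -0.21 to 0.06. KO against WT gave -0.13 under necrotic supernatant (adjusted p = 0.0859, passing with DESeq2 and without WT necrotic 3) and -0.06 under viable supernatant (adjusted p = 0.496), neither past the threshold.

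Mmp8, the neutrophil collagenase, cuts fibrillar collagens. Its position is chromosome 9, 7558456 to 7568485, plus strand. KO cultures had 276.1, 270.3 and 268.0 CPM with necrotic supernatant, against 270.5, 279.8 and 257.0 CPM with viable supernatant, and these sets overlapped. WT cultures had 299.2, 250.4 and 211.1 CPM with necrotic supernatant, against 209.1, 188.7 and 182.7 CPM with viable supernatant. The WT sets did not overlap, but the lowest necrotic library stood only just above the highest viable one.

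In WT the log2 fold change of Mmp8 with necrotic supernatant was 0.39 (SE 0.09, adjusted p = 0.0155), and in KO it was 0.01 (SE 0.09, adjusted p = 0.954). The WT call was lost with the compared groups alone (adjusted p = 0.0792), without WT viable 2 (adjusted p = 0.0725) and without WT viable 3 (adjusted p = 0.0661), and without WT necrotic 1 the value was 0.26. The difference of the responses was -0.38 with a 95% interval of -0.65 to -0.11 and an unadjusted p of 0.00962 (edgeR). After adjustment over all genes it did not pass (adjusted p = 0.571). Without a filter on low counts it passed (-0.38, adjusted p = 0.00112), and in no other alternative.

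Under viable supernatant Mmp8 averaged 269 ± 11.5 CPM in KO and 194 ± 13.8 CPM in WT (SD, n = 3 each), with no overlap. The KO level was higher by 0.48 on the log2 scale (SE 0.09, adjusted p = 0.00839). That call held under every alternative, with log2 fold changes between 0.43 and 0.54. Under necrotic supernatant the averages were 272 ± 4.14 CPM in KO and 254 ± 44.1 CPM in WT, a log2 fold change of 0.10 (adjusted p = 0.528). The 13 neutrophil and precursor markers were set beside Mmp8. For KO against WT under viable supernatant their summed level was 1176 to 1248 CPM in KO and 1398 to 1458 CPM in WT. By edgeR's test 0 were higher and 1 lower (S100a9, log2 fold change -0.37, adjusted p = 0.00211), where 2.97% of all genes were lower. DESeq2 called 4 of the 13, with no adjusted p for 1. With edgeR 7 had an unadjusted p under 0.05, and Csf3r among them was higher (0.23). Under necrotic supernatant the summed level was 1053 to 1109 CPM in KO and 1216 to 1402 CPM in WT, with 8 of 13 lower, where 3.12% of all genes were. The median log2 fold changes of KO against WT were -0.34 under necrotic and -0.23 under viable supernatant. For necrotic against viable supernatant, 0 of 13 were higher and 4 lower in KO cultures, and 1 was higher and 3 lower in WT cultures. Over all genes 4% were higher and 3.43% lower in KO, and 4.81% higher and 4.5% lower in WT. The marker higher in WT was Elane, neutrophil elastase, with log2 fold changes of 0.05 in KO (adjusted p = 0.825) and 0.40 in WT (adjusted p = 0.0144). Prtn3, proteinase 3, passed in neither genotype, with -0.01 in KO (adjusted p = 0.984) and 0.40 in WT (adjusted p = 0.064). Elane and Prtn3 do not stand for the list. Over the markers as a whole the median log2 fold change was -0.12 in KO and -0.14 in WT. The part of these markers in the Mmp8 values was not tested.

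Mmp12, the macrophage elastase, degrades elastin. It lies at chromosome 9, 7344381 to 7369499, plus strand. Its level was 28.1, 31.2 and 21.2 CPM in KO necrotic, 32.6, 38.1 and 28.9 CPM in KO viable, 26.6, 22.0 and 23.0 CPM in WT necrotic, and 28.6, 29.1 and 30.5 CPM in WT viable libraries. The WT sets were apart and the KO sets overlapped. The log2 fold changes for the response were -0.30 in KO (SE 0.12, adjusted p = 0.152) and -0.31 in WT (SE 0.12, adjusted p = 0.126), and neither passed. Without a filter on low counts both passed (adjusted p = 0.00506 in KO and 0.00355 in WT). KO against WT was 0.17 under necrotic (adjusted p = 0.416) and 0.16 under viable supernatant (adjusted p = 0.448). Of 13 macrophage markers, 5 were higher and 1 lower with necrotic supernatant in KO cultures, and 6 were higher and 1 lower in WT cultures. Over all genes 4% were higher and 3.43% lower in KO, and 4.81% higher and 4.5% lower in WT. The lower marker was Cx3cr1, the fractalkine receptor, at -1.04 in KO (adjusted p = 9.89e-05) and -0.77 in WT (adjusted p = 0.000615). Over the 13 markers the median log2 fold change was 0.17 in KO and 0.24 in WT. The summed level was 7868 to 8358 CPM in KO necrotic against 7418 to 7440 CPM in KO viable, and 8061 to 8206 CPM in WT necrotic against 6458 to 7087 CPM in WT viable libraries. Their part in the Mmp12 values was not tested.

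Mmp19, a secreted MMP with broad activity on basement membrane proteins, lies at chromosome 10, 128790910 to 128800824, plus strand. It had the narrowest range of the 9 genes in relative terms, with 54.5 to 54.7 CPM in KO necrotic, 49.8 to 54.1 in KO viable, 49.6 to 51.3 in WT necrotic and 47.4 to 48.9 CPM in WT viable libraries. The necrotic and viable libraries were apart in each genotype, yet the log2 fold changes of 0.09 (KO, adjusted p = 0.301) and 0.07 (WT, adjusted p = 0.381) did not pass. The 95% intervals ran from -0.01 to 0.19 in KO and from -0.03 to 0.17 in WT. KO libraries lay above WT libraries by 0.11 under necrotic (adjusted p = 0.163) and 0.09 under viable supernatant (adjusted p = 0.255).

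Adam8 is an ADAM protease of myeloid cells that takes part in osteoclast precursor fusion in mouse. It lies at chromosome 7, 139978932 to 139992562, minus strand. KO cultures had 308.8, 314.0 and 315.7 CPM with necrotic supernatant, against 402.9, 374.6 and 386.3 CPM with viable supernatant. WT cultures had 325.2, 298.0 and 343.4 CPM with necrotic supernatant, against 378.6, 421.1 and 415.6 CPM with viable supernatant. The necrotic libraries were all below the viable libraries of the same genotype, while KO and WT overlapped under both supernatants.

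The log2 fold change of Adam8 was -0.31 in KO (SE 0.06, adjusted p = 0.00461) and -0.33 in WT (SE 0.06, adjusted p = 0.00339), and both calls held under every alternative. The difference of the responses was 0.02, with a 95% interval of -0.15 to 0.19. KO against WT was -0.04 under necrotic (adjusted p = 0.689) and -0.06 under viable supernatant (adjusted p = 0.56). Adam8 fell while all 10 osteoclast markers rose in both genotypes. Over all genes 4% were higher in KO and 4.81% in WT. The summed osteoclast markers were 14050 to 14670 CPM in KO necrotic against 10640 to 11010 CPM in KO viable libraries, and 15460 to 16650 CPM in WT necrotic against 11670 to 12200 CPM in WT viable libraries. The part of these markers in the changes of Mmp9, Mmp14 and Adam8 was not tested.

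**Figure D3:**
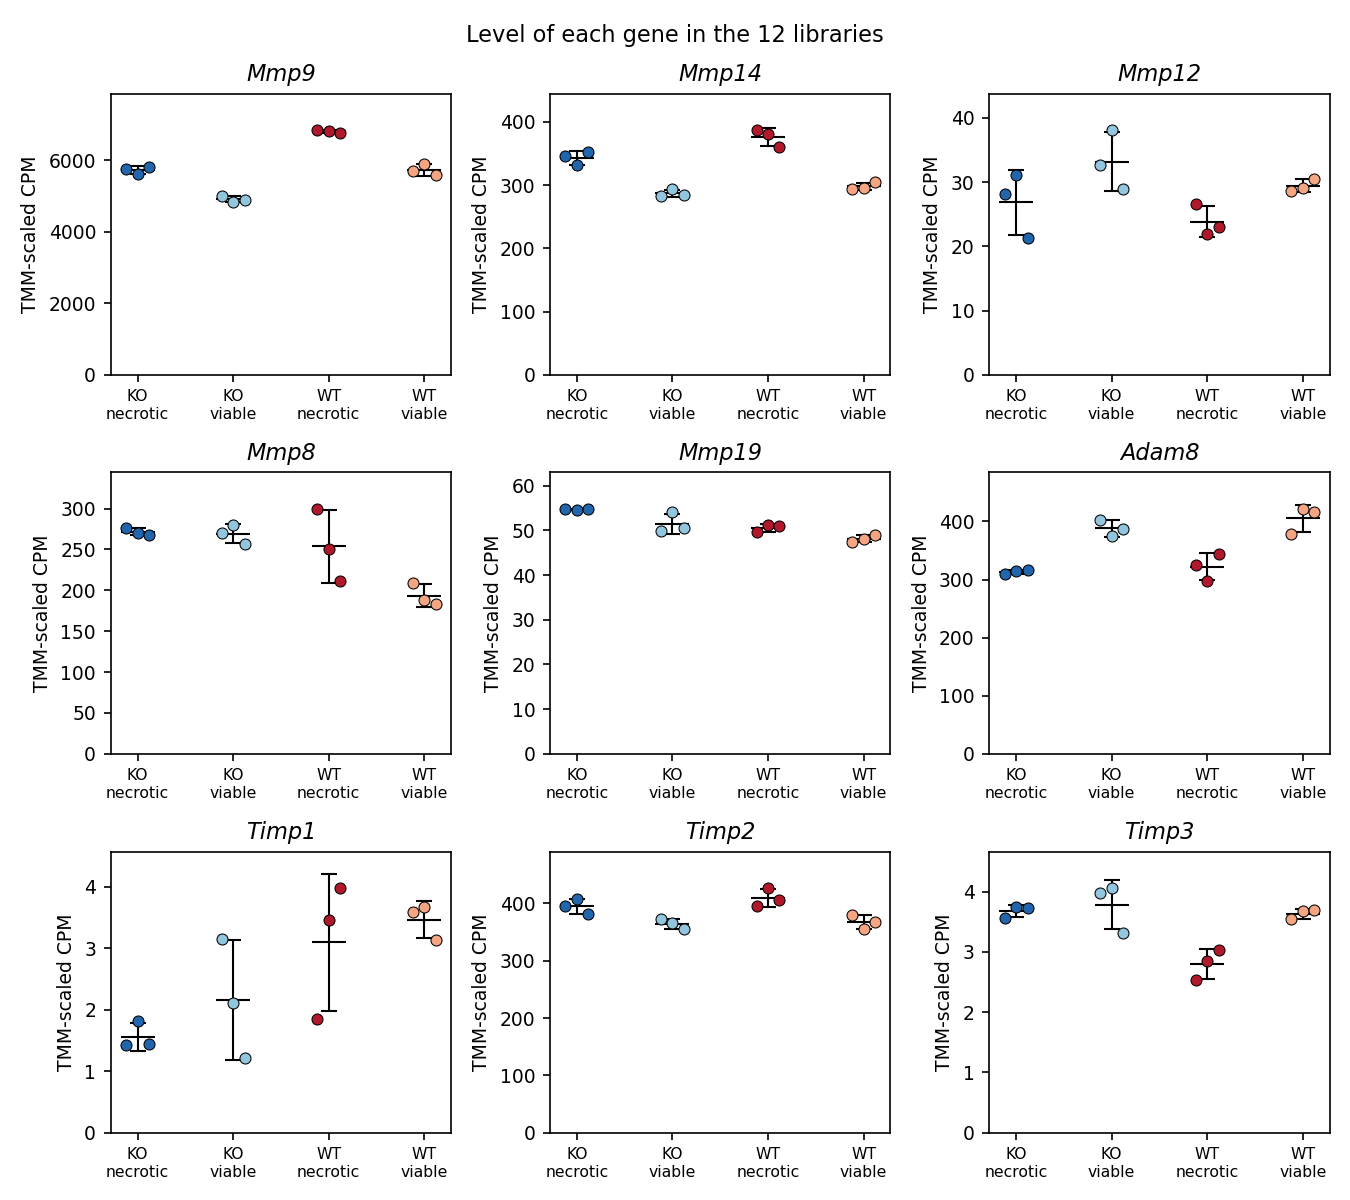
Level of each gene in every library, in TMM-scaled CPM on axes that start at 0, with 3 points per group, a long bar for the mean and an error bar for the SD. Mmp9, Mmp14 and Adam8 separate necrotic from viable libraries in both genotypes, and the Mmp8 points of WT viable (183 to 209 CPM) lie below those of the other groups.

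Timp2, a secreted inhibitor, had the highest level per kilobase of the 3 TIMPs. Its gene is on chromosome 11, 118301069 to 118355740, minus strand. KO libraries had 380.6 to 408.1 CPM with necrotic supernatant, against 354.8 to 372.9 CPM with viable supernatant. WT libraries had 394.8 to 426.3 CPM with necrotic supernatant, against 354.6 to 380.4 CPM with viable supernatant. Necrotic libraries were above viable ones in both genotypes, and the log2 fold changes of 0.12 in KO (SE 0.05, adjusted p = 0.171) and 0.16 in WT (SE 0.05, adjusted p = 0.0554) did not pass. The WT value passed with DESeq2 (adjusted p = 0.0128) and without WT viable 1 or WT necrotic 1. Between genotypes Timp2 overlapped, at -0.05 under necrotic and -0.01 under viable supernatant.

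Timp1, a secreted inhibitor that binds pro-Mmp9, was scarce at 30 to 157 counts per library. The gene is on chromosome X, 20870166 to 20874735, plus strand. Its level was 1.42, 1.82 and 1.44 CPM in KO necrotic, 3.16, 2.12 and 1.22 CPM in KO viable, 1.85, 3.46 and 3.98 CPM in WT necrotic, and 3.59, 3.68 and 3.13 CPM in WT viable libraries. KO necrotic libraries lay below all WT necrotic libraries, by only a small gap to WT necrotic 1. The log2 fold change of KO against WT was -1.02 under necrotic supernatant (SE 0.31, 95% interval -1.67 to -0.37, adjusted p = 0.0513) and -0.68 under viable supernatant (SE 0.29, adjusted p = 0.164). The necrotic value fell just short of the threshold and passed in 8 alternatives, with adjusted p from 0.000129 to 0.173 over all of them. The viable value passed without a filter (-0.68, adjusted p = 0.0189) and in no other alternative. Neither response passed, at -0.46 in KO (adjusted p = 0.437) and -0.12 in WT (adjusted p = 0.835).

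For KO against WT, stromal and bone cell markers had negative median log2 fold changes, the direction of Timp1. The medians over the 7 tested were -0.83 under necrotic and -1.26 under viable supernatant. The summed level over all 13 markers was 13.2 to 28.5 CPM in KO necrotic against 26.2 to 41.4 CPM in WT necrotic libraries. It was 14.2 to 37.9 CPM in KO viable against 52.8 to 83.7 CPM in WT viable libraries. The necrotic ranges overlapped and the viable ranges did not. By edgeR's test, Col1a1, Col1a2 and Col3a1 were lower in KO under viable supernatant (3 of 7, log2 fold changes from -1.55 to -1.26). There 2.97% of all genes were lower. Under necrotic supernatant 1 of 7, Pdgfrb, was lower (-0.83, adjusted p = 0.0399), where 3.12% of all genes were. DESeq2 called 0 of the 7 under necrotic and 3 under viable supernatant, with no adjusted p for 2 and 4 of them. The defining osteocyte gene Sost averaged 0.015 CPM in KO necrotic libraries and had 0 counts in the other 3 groups. Their part in the Timp1 values was not tested.

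Timp3, which binds the extracellular matrix and inhibits ADAM proteases as well as MMPs, had 41 to 185 counts per library. The position is chromosome 10, 86300372 to 86349506, plus strand. Its level was 3.56, 3.74 and 3.73 CPM in KO necrotic, 3.97, 4.06 and 3.32 CPM in KO viable, 2.53, 2.84 and 3.03 CPM in WT necrotic, and 3.54, 3.68 and 3.69 CPM in WT viable libraries. WT necrotic libraries lay below all other libraries, and the other groups overlapped each other. The response was -0.03 in KO (adjusted p = 0.937) and -0.37 in WT (adjusted p = 0.0957), and KO against WT was 0.38 under necrotic supernatant (adjusted p = 0.0908) and 0.05 under viable supernatant (adjusted p = 0.913). None passed, in the fit to all libraries or in any alternative that was run.

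**Figure D4:**
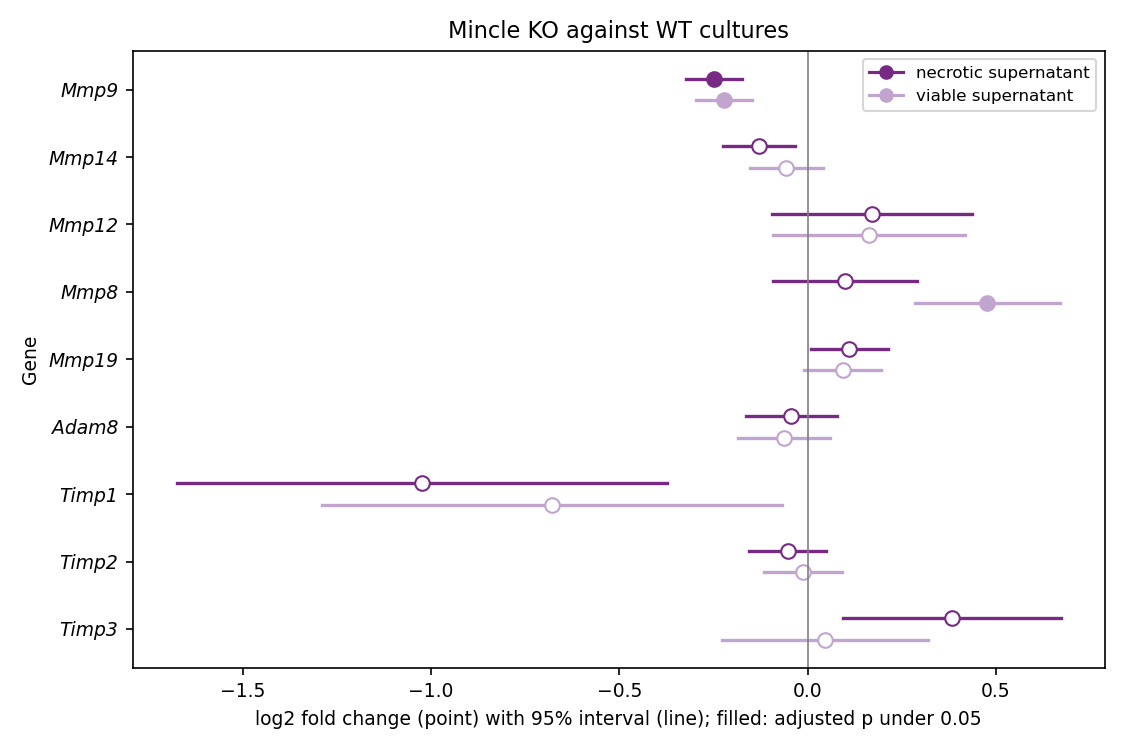
Log2 fold change of KO against WT for each gene under necrotic (dark) and viable (light) supernatant, with lines for the 95% interval and filled points where the adjusted p was under 0.05. Mmp9 is left of 0 under both supernatants (-0.25 and -0.22), Mmp8 is filled only under viable supernatant (0.48), and Timp1 has the widest intervals.

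Some counts may include reads of overlapping genes, since the strand setting of the counting is not given in the sources used here. Timp3 shares 1733 exonic bases with Syn3 on the opposite strand, which itself had 4 to 17 counts per library. Mmp19 shares 789 exonic bases with Tmem198b on the opposite strand, which had 179 to 600 counts. Timp1 lies within Syn1 on the opposite strand, with 0 shared exonic bases, and Syn1 had 129 to 487 counts. Mmp12 and Adam8 share 157 and 46 exonic bases with Mmp1b (0 counts in each library) and Gm16201 (14 to 55 counts).

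Protease and inhibitor transcripts were also set against each other within each library, where scaling cancels. The ratio of Mmp14 to Timp2 counts, not corrected for length, was 0.872 ± 0.0578 in KO necrotic against 0.787 ± 0.0248 in KO viable libraries, and 0.919 ± 0.052 in WT necrotic against 0.812 ± 0.0348 in WT viable libraries (SD, n = 3 each). In each genotype every necrotic library had a higher ratio than every viable library. The ratio of Mmp9 to Timp1 counts was far more variable, at 3720 ± 550 in KO necrotic, 2632 ± 1260 in KO viable, 2454 ± 1080 in WT necrotic and 1659 ± 111 in WT viable libraries. It overlapped between all pairs of groups except KO necrotic and WT viable. Summed per kilobase over the 5 MMPs, the level was 1773 to 1831 CPM in KO necrotic against 1551 to 1592 in KO viable libraries. It was 2072 to 2138 in WT necrotic against 1724 to 1812 CPM in WT viable libraries. Mmp9 made up most of each sum. Over the 3 TIMPs the sum was 99.8 to 107 CPM per kilobase in KO necrotic and 92.9 to 99.8 in KO viable, and 104 to 114 in WT necrotic and 95.6 to 102 CPM per kilobase in WT viable libraries.

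**Figure D5:**
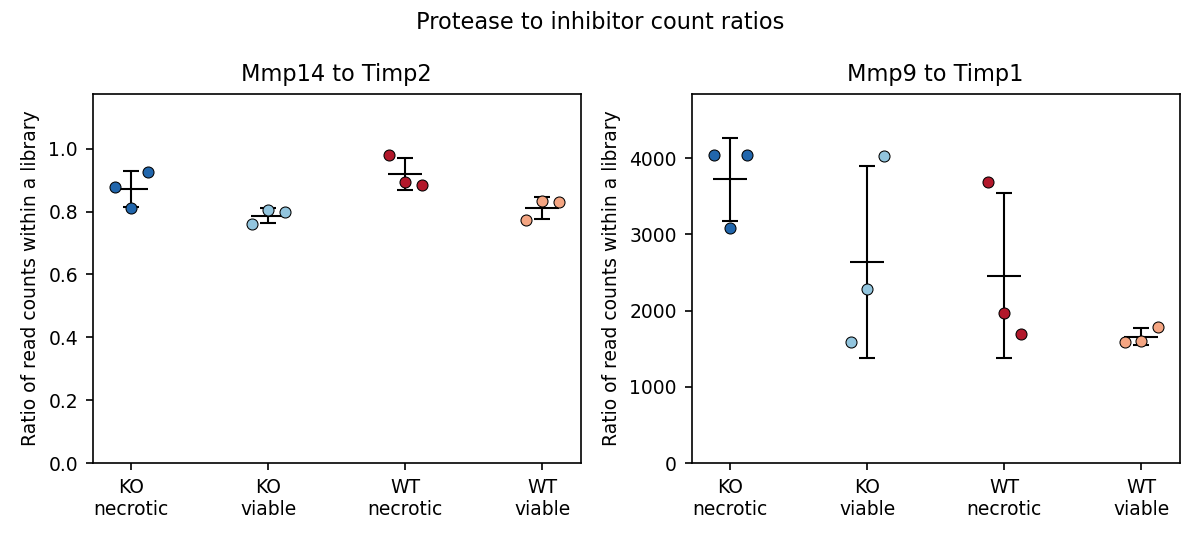
Ratio of Mmp14 to Timp2 counts (left) and of Mmp9 to Timp1 counts (right) in each library by group, without length correction, with points for libraries, a long bar for the mean and error bars for the SD. The Mmp14 to Timp2 ratio is higher in necrotic than in viable libraries of each genotype, while the Mmp9 to Timp1 ratio spreads from 1586 to 4039.

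Other genes of the protease system were counted by list. In the KO response 0 of 7 other MMPs, 1 of 7 other ADAMs, 0 of 8 ADAMTS genes, 2 of 8 inhibitors and 1 of 8 activators passed, where 7.43% of all genes did. In the WT response the counts were 2 of 7, 2 of 7, 2 of 8, 1 of 8 and 2 of 8 in the same order, where 9.31% of all genes passed. For KO against WT they were 0, 3, 1, 1 and 3 under necrotic supernatant, where 8.13% of all genes passed, and 0, 0, 0, 2 and 1 under viable supernatant, where 5.84% did. The list medians of the log2 fold change ran from -0.32 (ADAMTS) to 0.05 (inhibitors) in the KO response and from -0.07 (ADAMTS) to 0.21 (activators) in the WT response. Of 18 other MMP genes 7 were abundant enough to test. In KO cultures 0 of the 7 passed edgeR's test for necrotic against viable supernatant, with 3 at an unadjusted p under 0.05. DESeq2 called 0 there, but it gave no adjusted p for 5 of the 7, which it could not call. In WT cultures Mmp27 was higher (40.6 ± 2.84 CPM with necrotic against 29.6 ± 3.38 CPM with viable supernatant, log2 fold change 0.44, adjusted p = 0.00841). Mmp25, a membrane-anchored MMP of leukocytes at 0.892 to 2.44 CPM over all libraries, was lower in WT (-0.80, adjusted p = 0.031). Both are edgeR calls, and DESeq2 called 1 of the 7 in WT, with no adjusted p for 4. In KO, Mmp27 had 0.26 (adjusted p = 0.0969) and Mmp25 had -0.53 (adjusted p = 0.136). In both genotype comparisons 0 of the 7 passed edgeR's test and 0 had an unadjusted p under 0.05. DESeq2 called 0, but it gave no adjusted p for 2 of the 7 under necrotic and 5 under viable supernatant. The collagenase Mmp13 averaged 2.92 CPM in KO necrotic, 3.33 in KO viable, 3.28 in WT necrotic and 3.03 CPM in WT viable libraries and did not pass in any comparison.

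Among 7 other ADAM genes tested, Adam17, the sheddase of tumour necrosis factor, was lower with necrotic supernatant in KO (267 ± 3.64 CPM with necrotic against 308 ± 14.4 CPM with viable supernatant, log2 fold change -0.21, adjusted p = 0.0193) and in WT (261 ± 11.2 against 305 ± 12.3 CPM, -0.23, adjusted p = 0.0115). Adam17 and Adam8 thus fell in both genotypes. Adam19 rose in WT (0.27, adjusted p = 0.0459), and under necrotic supernatant it was lower in KO than in WT (-0.30, adjusted p = 0.0363). Adam10 and Adam9 were higher in KO under necrotic supernatant (0.20 and 0.18). Of 8 ADAMTS genes, 0 passed edgeR's test for the response in KO (3 at an unadjusted p under 0.05 and 1 by DESeq2). By edgeR's test Adamts10 (-0.27) and Adamts6 (-1.14) were lower in WT, where DESeq2 called 1 of the 8 and gave no adjusted p for 4. In KO both had the same sign without passing, at -0.235 for Adamts10 (adjusted p = 0.0582) and -0.40 for Adamts6 (adjusted p = 0.417). The difference of the responses passed for neither gene (adjusted p = 0.95 for Adamts10 and 0.693 for Adamts6). Adamts13 was lower in KO than in WT under necrotic supernatant (-1.19, adjusted p = 0.0184). Adamts6 and Adamts13 were scarce, averaging 0.768 and 1.51 CPM over all libraries.

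Inhibitors other than TIMPs and activators of MMP precursors also held called genes. Of 8 inhibitors tested, Serpine2 was higher with necrotic supernatant in KO (0.33, adjusted p = 0.041) and in WT (0.35, adjusted p = 0.0266). Tfpi2 was higher in KO (0.57, adjusted p = 0.0481) and had 0.47 in WT (adjusted p = 0.0936). These are edgeR values, and DESeq2 called 1 of the 8 inhibitors in each genotype, with no adjusted p for 2. Spint2 was lower in KO than in WT under viable supernatant (-0.27, adjusted p = 0.0388). Of 8 activators tested, cathepsin K (Ctsk) was higher with necrotic supernatant in KO (0.46, adjusted p = 0.000167) and in WT (0.39, adjusted p = 0.000603), and lower in KO than in WT under viable supernatant (-0.20). The neutrophil proteases Elane, Prtn3 and Ctsg were lower in KO than in WT under necrotic supernatant (-0.53, -0.57 and -0.49), and Elane was higher with necrotic supernatant in WT (0.40).

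Of 13 surface partners and substrates tested, the integrin subunit Itgb3 rose with necrotic supernatant in KO (0.28, adjusted p = 0.011) and WT (0.26, adjusted p = 0.015). Cd63, a tetraspanin that binds TIMP1 in human cells, rose in KO (0.42, adjusted p = 0.00745) and had 0.11 in WT (adjusted p = 0.459). In WT, Bsg, also called EMMPRIN, and Sdc1 rose (0.20 each). Lrp1, an endocytic receptor of Mmp9 and of Timp1 complexes, fell in WT (-0.32, adjusted p = 0.0105), as did Itga4 (-0.48). In KO these genes had the same signs without passing. The KO values were 0.10 for Bsg (adjusted p = 0.206) and 0.14 for Sdc1 (adjusted p = 0.0667). They were -0.22 for Lrp1 (adjusted p = 0.0676) and -0.30 for Itga4 (adjusted p = 0.108). KO cultures had less Sdc1 and Spp1 than WT under both supernatants, less Bsg and Lcn2, a lipocalin whose human protein binds MMP9, under necrotic supernatant (-0.20 and -0.40), and more Itga4 there (0.45). Of 14 transcription factors that bind MMP promoters or drive osteoclast genes, Nfatc1 rose in KO (0.22, adjusted p = 0.0211) and WT (0.23, adjusted p = 0.0156). Fosl2 rose in KO (0.21, adjusted p = 0.0289) and had 0.15 in WT (adjusted p = 0.0969). In the genotype comparisons 0 passed edgeR's test. At an unadjusted p under 0.05 there were 3 under necrotic and 1 under viable supernatant. DESeq2 called 0 and 1 of the 14, with no adjusted p for 1 and 2 of them. For the difference of the responses, 0 genes of these 7 lists passed edgeR's test, with at most 2 genes of a list at an unadjusted p under 0.05 and 0 called by DESeq2.

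The genes whose level followed a member most closely over the 12 libraries were found by Pearson's r of log2 CPM among 11383 genes with a mean of at least 1 CPM. For Mmp9 they were Eif2b3 (0.98), Fh1 (0.98) and Cavin3 (0.97), for Mmp14 Atg3 (0.98), Atp6v1e1 (0.97) and Ctsk (0.97), and for Adam8 Vcan (0.97), Dhrs9 (0.97) and Hmga1 (0.97). Mmp8 had the weakest best match, with Il21r (0.89), Cd81 (0.89) and Ccl6 (0.88). Timp1 was closest to Ccn2 (0.94), Ndrg4 (0.93) and Bag3 (0.91), Timp2 to Il11ra1, Tmem86a and Serpinb6a (0.95 to 0.96), and Timp3 to Tmem168, Zfp597 and Clec12b (0.91 to 0.92). Mmp12 was closest to Slc15a3, Bicd2 and Gtf2ird2 (0.91) and Mmp19 to Serinc5 (0.93) and Slc40a1 (0.92). The 12 points fall into the 4 groups and are the same libraries for every gene, so these values are descriptions.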

How the data were processed

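The authors deposited 1 table of raw read counts per Ensembl gene, 46983 genes by 12 libraries, without normalization. Per the labels' protocols, libraries were made from 1 µg of total RNA with a NEBNext Ultra kit and sequenced in pairs. The submitters' processing notes name CASAVA, HISAT2 2.0.5, HTSeq 0.6.1 and GRCm38. Annotation release, strand setting, trimming and the handling of multi-mapping reads: not given in the sources used here.

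Groups and replicate numbers came from the sample titles, each of which matched 1 column. Symbols, positions and exonic lengths came from GENCODE M 21 (46488 identifiers matched, 495 did not), and promoters from RefSeq. filterByExpr of edgeR 4.0.16 in R 4.3.3 kept 14153 genes and at least 99.92% of counts. TMM factors, 1 quasi-likelihood fit of the 4 group means (8 residual degrees of freedom) and Benjamini-Hochberg adjustment over all genes gave the 5 comparisons. The fit was also run on simulated counts with a constant spread and changes in the WT response alone. Those changes were larger than any called for a member, so the simulation cannot show how changes of the sizes found here are recovered. The biological coefficient of variation was 7.18%. The standard error is the log2 fold change divided by the square root of F. A count of 0 allows up to 3 counts, or 0.0598 to 0.185 CPM, counting error only. Within groups, log2 CPM correlated at 0.990 to 0.995 across genes, and the chi-square of every replicate pair exceeded sampling noise (3.23 to 22.7 per degree of freedom).

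The members and gene lists were chosen with earlier results of these data known. The text names all 9 members, up to 4 called genes per list and comparison by smallest p, and the 3 genes most like each member, leaving out predicted-gene names. Mmp13 and Sost were added by name, and genes that these rules would name but that are withheld are not reported here. Alternatives were median-ratio factors, DESeq2 1.42.0, no filter, a fit to only the groups compared, a block for the replicate number, the deepest library thinned, offsets for length and GC content (mgcv 1.9.3), and leaving out each library.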

Additional observations from a re-analysis of the deposited data

How the results depend on the processing

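Of the 10 calls among the 9 genes, 9 held in all 19 alternatives, and the Mmp8 response in WT held in 16. Counts of called members stayed within 1.5 times the reported count except for KO against WT under necrotic supernatant, where 2 passed without a filter, with the compared groups alone and with the deepest library thinned, 3 passed with DESeq2, and 1 to 2 passed with a library left out, and for the difference of the responses, where 1 member (Mmp8, adjusted p = 0.00112) and 209 genes passed without a filter. Counts over all genes moved more. With the compared groups alone they were 1820 for the KO response, 359 for the WT response and 449 for KO against WT under viable supernatant. Without a filter, KO against WT gave 1857 genes under necrotic and 1618 under viable supernatant, and length and GC offsets gave 681 under necrotic supernatant. With 1 library left out, the counts ran from 383 to 1277 (KO response), 385 to 2015 (WT response), 163 to 1605 (KO against WT, necrotic, lowest without KO necrotic 1) and 227 to 1060 (KO against WT, viable, lowest without KO viable 2). The cause was not tested. Per exonic kilobase, the Mmp14 to Timp2 ratio became 0.57 in KO necrotic, 0.515 in KO viable, 0.601 in WT necrotic and 0.531 in WT viable libraries, and the Mmp9 to Timp1 ratio 933 in KO necrotic, 661 in KO viable, 616 in WT necrotic and 416 in WT viable libraries, all by the constant length factor. Fold changes rose or fell with transcript length across 10482 genes, with Spearman's rho of -0.31 (KO response), -0.28 (WT response), 0.43 (KO against WT, necrotic) and 0.46 (KO against WT, viable).

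The sign turned only for values that passed no test in the fit to all libraries. With length and GC offsets the log2 fold changes were -0.048 for Mmp8 (KO response), 0.015 for Mmp9, -0.056 for Mmp12 and 0.001 for Timp2 (difference of the responses), 0.005 for Adam8 and 0.008 for Timp2 (KO against WT, necrotic), and 0.007 for Timp2 and -0.006 for Timp3 (KO against WT, viable). The difference of the responses was -0.003 for Mmp19 with the deepest library thinned and -0.003 for Mmp12 with DESeq2. With 1 library left out, the ranges that reached or crossed 0 were -0.019 to 0.039 for Mmp8 and -0.125 to 0.014 for Timp3 in the KO response, and -0.353 to 0.127 for Timp1 in the WT response. For the difference of the responses they were -0.107 to 0.155 for Mmp12, 0 to 0.056 for Mmp19, -0.033 to 0.068 for Adam8 and -0.667 to 0.066 for Timp1. For KO against WT they were -0.017 to 0.235 for Mmp8 and -0.097 to 0.006 for Adam8 under necrotic supernatant, and -0.033 to 0.012 for Timp2 under viable supernatant.

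No steady pairing by replicate number was seen. Same-numbered libraries had correlations of their deviations from -0.0864 to 0.143. In the KO response, but not in the WT response or between genotypes, every necrotic library correlated best with its own number. With 3 libraries per group, such deviations cannot decide whether the libraries were paired. With the replicate number as a block, 3 members and 947 genes passed in KO, 4 and 1231 in WT, 1 and 1154 for KO against WT under necrotic supernatant, 2 and 744 under viable supernatant, and 0 and 0 for the difference of the responses. Timp1 and Timp3, with at most 185 counts in a library, are the members that depth limits most.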
